A study of Mus musculus with 7 samples.

Results

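The 9 genes described here encode proneural and related basic helix-loop-helix (bHLH) transcription factors: the neurogenins Neurog1, Neurog2 and Neurog3, the atonal homologue Atoh1, the NeuroD factors Neurod1, Neurod2, Neurod4 and Neurod6, and Olig2. They were chosen by name out of 21887 protein-coding genes, and all 9 were found in the RefSeq gene table for mm10. Each was placed against a merged list of 1437 lamin-associated domains (LADs), the parts of the genome that lie against the nuclear lamina. The series used CUT&RUN, in which an antibody directs a nuclease to cut out the DNA around its target, in mouse embryonic fibroblasts (iMEF in the labels). Of the 7 libraries from these cells, Lamin B1 and IgG, the control, each had 2, H3K14ac had 1, and H3K9me2 had 1 with each of the antibodies ab1220 and 39041. According to the design text, the lines were derived independently from a single mouse colony. No treatment is given in the labels. The name of the list alone gives LAD, wild type and merged, so that it rests on Lamin B1, and on both of its libraries, is a reading of that name. The domains have no signal value and no replicate error, and their read depth is unknown, so every placement below is a description without a test. No expression was measured, so neither the fibroblast identity of the cells nor the activity of any gene could be checked.

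Proneural factors set progenitor cells on the path to neurons. They pair with E proteins and bind E-boxes, short DNA elements with the letters CANNTG, in the regulatory regions of their targets. Id proteins hold back the E proteins, and Hes factors, which act downstream of Notch, repress the proneural genes in neighbouring cells. The neurogenins and Atoh1 act early, NeuroD factors mostly later in differentiation, and Olig2 acts in progenitors of motor neurons and oligodendrocytes. LADs are in general poor in active genes.

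The proneural genes were divided between LADs and the sequence between them. Neurog2, Neurod1, Neurod4, Neurod6 and Atoh1 lay wholly inside a LAD, whereas Neurog1, Neurog3, Neurod2 and Olig2 lay outside, and no LAD border cut a member. This made 5 of 9 genes inside (55.6%). With LADs of at least 500 kb alone, 3 of 9 were inside. With 50 kb added to each side of the genes, the count was also 3 of 9. Neurog2 and Neurod1 were no longer wholly inside in both cases. The shares of protein-coding genes that follow were counted with all LADs and unwidened genes. They can be set beside the 5 of 9 only. Of all protein-coding genes, 21.8% were wholly inside, 3.36% were cut by a border and 74.9% were outside. The members are short, at 1.67 to 12.1 kb. Among protein-coding genes of at most 20 kb the share inside was 26.3%, or 18% without the olfactory and vomeronasal receptor genes. Both subfamilies with several members were split, with 1 of 3 neurogenins and 3 of 4 NeuroD genes inside.

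**Figure D1:**
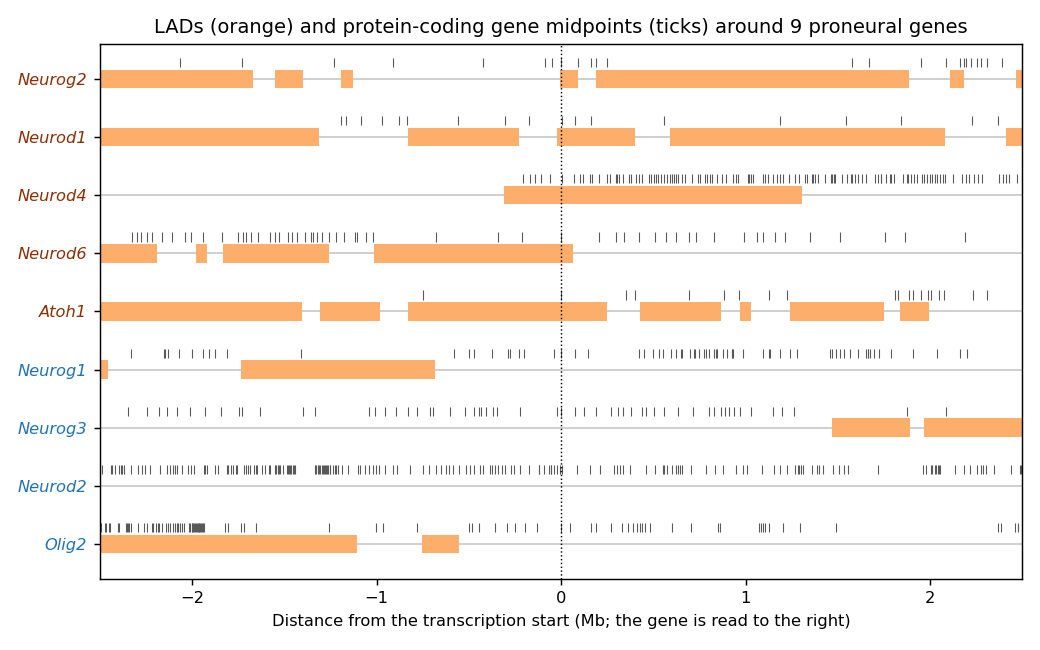
LADs (orange bars) and midpoints of protein-coding genes (ticks) along 5 Mb around each proneural gene, plotted by distance in Mb from its transcription start (dotted line), with the direction of transcription to the right. In the upper 5 rows (red names) the start lies in a LAD, and in the lower 4 rows (blue names) the nearest LAD is between 556 kb and 4.50 Mb away.

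Among the neurogenins, Neurog2, which acts in the cortex and in sensory ganglia, was the member inside a LAD. The gene (chromosome 3, 127632733 to 127635636) sat 4.53 kb from the lower and 90.1 kb from the upper border of a LAD of 97.5 kb (127628207 to 127725705). The transcription start pointed to the nearer border. This was the shortest LAD and the shortest distance among the members inside. Of the LADs in the list, 17.3% (249) were under 100 kb, but these held 1.05% of the protein-coding genes wholly inside a LAD. Only 1.26% of such genes lay closer to a border than Neurog2. With LADs under 100 kb left out, Neurog2 was outside, at 185 kb from the next LAD, and the count inside fell to 4 of 9. The share of all protein-coding genes was not counted under this rule. A gap of 95 kb separated this small LAD from the next one, of 1700 kb. No other protein-coding gene was wholly inside. Alpk1, encoding an innate immune kinase, starts 31.1 kb above Neurog2 and was cut by the upper border. Zgrf1, 14.7 kb below Neurog2, ended 10.2 kb outside the lower border.

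Neurog1 and Neurog3, by contrast, lay in long LAD-free regions. Neurog1, needed for cranial sensory neurons (chromosome 13, 56250478 to 56252180), was 5342 kb from the LAD below (50008184 to 50908180) and 683 kb from the LAD above (56935662 to 57988158). Its gap of 6.03 Mb held 77 protein-coding genes, and its neighbours Tifab and the chemokine gene Cxcl14 were outside as well, at 71.5 and 36.5 kb from it. Neurog3, the factor that specifies endocrine cells of the pancreas and gut (chromosome 10, 62133090 to 62134763), was 4437 kb from the LAD below and 1466 kb from the LAD above. These flanking LADs ran from 57610899 to 57695897 and from 63600880 to 64025877. The gap around Neurog3 measured 5.90 Mb and held 73 protein-coding genes, with Fam241b and Tspan15 next to it at 22.0 and 50.6 kb, both outside. These gaps were longer than 97.3% (Neurog1) and 97.0% (Neurog3) of the gaps between LADs. By distance to the nearest LAD the genes stood at the 45.9th (Neurog1) and 67.9th (Neurog3) percentile of protein-coding genes outside.

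Atoh1, which makes granule cell precursors of the cerebellum, hair cells of the inner ear and secretory cells of the gut, lay in a LAD that held no other whole protein-coding gene. The gene (chromosome 6, 64729125 to 64731245) was 830 kb from the lower and 246 kb from the upper border of a LAD of 1077 kb (63899446 to 64976941). Smarcad1, a chromatin remodeller gene 311 kb above Atoh1, lay in the gap that follows, 40.9 kb from the nearest LAD. The next LADs on each side began after gaps of 150 and 180 kb. Only 2 other protein-coding genes had their midpoint in the 1 Mb window centred on Atoh1, and 3.36% of protein-coding genes had fewer.

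Of the NeuroD genes, 3 lay inside a LAD and Neurod2 lay outside. Neurod1, which acts in endocrine pancreas and in granule neurons (chromosome 2, 79452637 to 79456636), was 398 kb from the lower and 20.5 kb from the upper border of a LAD of 422 kb (79054661 to 79477159). Its start faced the nearer, upper border. Neurod1 was cut by this border with 50 kb added to each side, and was outside with LADs of at least 500 kb alone. The domain also held Cerkl, a retinal gene 23.6 kb below Neurod1, and the integrin gene Itga4, both wholly inside. Itprid2, 132 kb above Neurod1, lay in the gap that follows, 14.2 kb from the next LAD. Gaps of 190 and 210 kb separated the domain from LADs of 1490 and 597 kb. Neurod6, a gene of cortical projection neurons (chromosome 6, 55677818 to 55681263), lay 60.8 kb from the lower and 1016 kb from the upper border of a LAD of 1080 kb (55616972 to 56696967). In this LAD, Itprid1, Ppp1r17 and the phosphodiesterase gene Pde1c were also wholly inside. Itprid1 is 124 kb above Neurod6, and Adcyap1r1, a receptor gene 176 kb below it, was outside. The LAD-free stretch below this domain measured 8487 kb, so Neurod6 stood close to the edge between this long gap and its LAD. The LAD was longer than 72.3% of the LADs in the list. It was shorter than the median LAD around a wholly inside protein-coding gene, at 1879 kb.

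Neurod4, a factor of retinal and early neural differentiation (chromosome 10, 130268152 to 130280254), lay in a LAD of odorant receptor genes at the end of its chromosome. This LAD (128973173 to 130588166) measured 1615 kb, and 62 of its 65 protein-coding genes encode olfactory or vomeronasal receptors. The other two besides Neurod4 were Gm10310 and Tespa1, a gene of lymphocyte signalling. Neurod4 was 1295 kb from the lower border and 308 kb from the upper one. The upper border is close to the end of the annotated chromosome, with the last annotated feature 4.74 kb beyond it, so no LAD follows. The neighbours Olfr827, 57.0 kb below, and Tespa1, 42.6 kb above, were wholly inside. The 1 Mb window centred on Neurod4 held the midpoints of 25 other protein-coding genes, the most of the members inside, against 2 to 7 for the other 4.

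Neurod2, like Neurod6 a gene of cortical projection neurons, was the member farthest from any LAD. The gene (chromosome 11, 98325415 to 98329645) was 4495 kb from the LAD below (90707887 to 93830376) and 10141 kb from the LAD above (108470331 to 108882828). It was farther from a border than 94.7% of the protein-coding genes outside LADs. The gap measured 14.6 Mb, longer than 99.7% of the gaps, and held 392 protein-coding genes. In the 1 Mb window centred on Neurod2 lay the midpoints of 32 other protein-coding genes, the most of any member. Cdk12, a kinase gene 44.3 kb below, and Gm33099, 4.81 kb above, were both outside.

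Olig2 (chromosome 16, 91225550 to 91228677) lay outside LADs beside its paralogue Olig1. It was 556 kb from the LAD below (90469382 to 90669380) and 3608 kb from the LAD above (94836868 to 95291865), in a gap of 4.17 Mb with 48 protein-coding genes. Olig1, 41.1 kb above Olig2, was 600 kb from the nearest LAD. The gene 4932438H23Rik, 95.4 kb below, was also outside. Over the 4 members outside, all 8 nearest neighbours were outside. They lay within 95.4 kb of members that were at least 556 kb from a LAD, so the members' own positions nearly fixed this count. Over the 5 members inside, 4 of the 10 nearest neighbours were wholly inside, 2 were cut by a border and 4 were outside. Of all protein-coding genes, 21.8% were wholly inside, 3.36% cut and 74.9% outside.

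**Figure D2:**
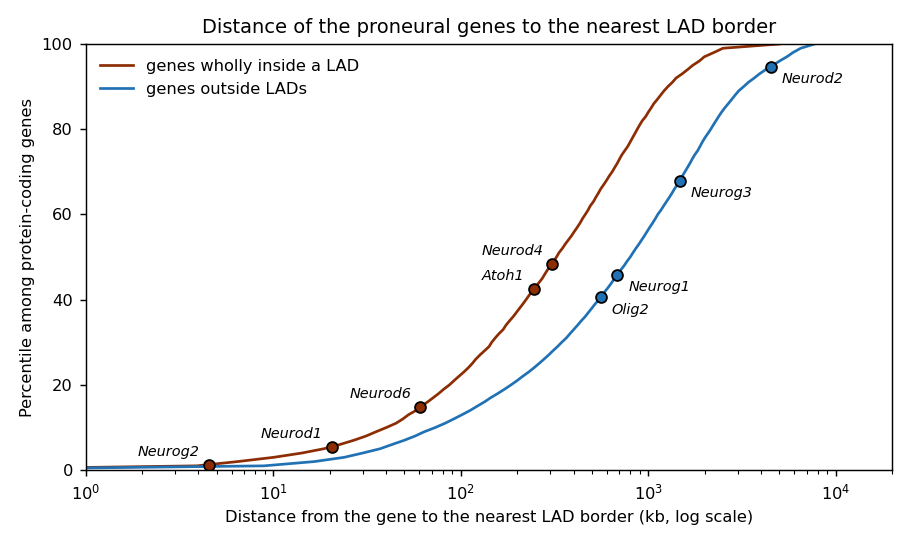
Distance from each proneural gene to the nearest LAD border in kb (log scale, x axis) against its percentile among protein-coding genes of the same placement (y axis), with lines for all genes wholly inside (red) and all genes outside (blue). All 5 members inside sit below the 50th percentile of the red line, and Neurod2 sits at the 94.7th percentile of the blue one. The point of Neurod4 is its distance to the border close to the chromosome end, and its other border is 1295 kb away.

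In order of distance, the members inside ran from Neurog2 (4.53 kb) through Neurod1 (20.5 kb), Neurod6 (60.8 kb) and Atoh1 (246 kb) to Neurod4 (308 kb). Each was closer to a border than the median protein-coding gene wholly inside a LAD, at 324 kb. Without the receptor genes this median was 260 kb, and 4 of the 5 were closer than it. For Neurod4 the nearer border is the one close to the end of the annotated chromosome, where no LAD-free stretch with a further LAD follows. Its other border was 1295 kb away, farther than both medians. Neighbours in this order differed by more than the step of about 2.5 kb in which domain lengths are given. The precision of the borders themselves is unknown. The order depended on short gaps: with LADs joined across gaps of at most 250 kb, Neurod1 was 828 kb and Atoh1 1991 kb from a border, both farther than Neurod4, which stayed at 308 kb. The members outside ran from Olig2 (556 kb) through Neurog1 (683 kb) and Neurog3 (1466 kb) to Neurod2 (4495 kb), so that 2 of 4 were farther than the median gene outside (801 kb). Distances were taken from the nearer gene end.

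The members inside differed in how much of the surrounding sequence was also lamin-associated. In a window of 1 Mb centred on the gene, LADs covered 41.1% around Neurog2, 56.3% around Neurod6, 69.0% around Neurod1, 82% around Atoh1 and 99.4% around Neurod4. For the median protein-coding gene wholly inside a LAD this was 91%, and all members inside but Neurod4 were below it. Around each of the 4 members outside, coverage in this window was 0%. That was also the value for 63.1% of all protein-coding genes outside LADs, so it does not set these members apart. In windows of 5 Mb the coverage around Olig2 was 31.8%, that around Neurog1 22.0% and that around Neurog3 19.2%, while it remained 0% around Neurod2. Neurog2 changed the other way from Atoh1, from 32.2% in 500 kb to 59.2% in 5 Mb, where Atoh1 went from 99.4% to 73.2%. Around Neurog2, coverage was lowest in the window of 500 kb.

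**Figure D3:**
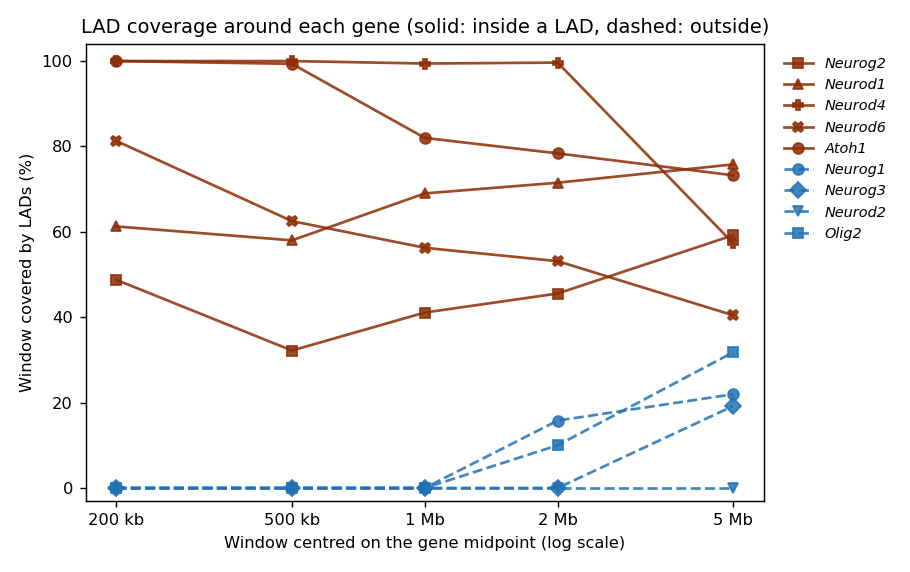
Percentage of sequence covered by LADs (y axis) in windows of 200 kb to 5 Mb (x axis, log scale) centred on each proneural gene, cut at the last annotated feature of the chromosome. Solid red lines are the 5 members inside a LAD and dashed blue lines the 4 outside, which are all at 0% up to 1 Mb.

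The promoters of the members inside were of different kinds. CpG dinucleotides are depleted in most of the mouse genome, and promoters that keep them form CpG islands. The observed over expected CpG ratio was computed for the 300 bases from 250 before to 50 after the start in the RefSeq promoter table (GRCm38.p6, the same build as mm10), which held all 9 members. Neurod1 and Atoh1 had ratios of 0.84 each, Neurog2 had 0.57, Neurod4 0.20 (0.32 at its second start in the table) and Neurod6 0.19. The start used for Neurog2, 127633136, lies inside its annotated extent, so its ratio is that of sequence within the gene. The 250 bases before the start of 3 genes show this contrast, Neurod1 and Atoh1 with 22 and 14 CpGs and Neurod6 with 3. Neurod2, the member farthest from LADs, is printed beside them and has 11. The sequences run 5′ to 3′ towards the start, and capitals mark CpGs.
Neurod1 (chr2:79456637-79456886, minus strand): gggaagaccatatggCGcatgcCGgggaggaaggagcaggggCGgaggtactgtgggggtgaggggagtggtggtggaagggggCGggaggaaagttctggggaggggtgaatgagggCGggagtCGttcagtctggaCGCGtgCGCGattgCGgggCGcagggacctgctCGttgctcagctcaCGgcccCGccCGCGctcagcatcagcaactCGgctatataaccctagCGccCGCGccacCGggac
Atoh1 (chr6:64728875-64729124, plus strand): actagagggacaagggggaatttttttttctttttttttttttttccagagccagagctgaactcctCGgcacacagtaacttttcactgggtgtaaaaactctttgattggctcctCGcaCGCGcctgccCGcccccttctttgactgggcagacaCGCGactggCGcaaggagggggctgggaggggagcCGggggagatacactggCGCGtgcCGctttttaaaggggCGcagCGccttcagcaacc
Neurod6 (chr6:55681264-55681513, minus strand): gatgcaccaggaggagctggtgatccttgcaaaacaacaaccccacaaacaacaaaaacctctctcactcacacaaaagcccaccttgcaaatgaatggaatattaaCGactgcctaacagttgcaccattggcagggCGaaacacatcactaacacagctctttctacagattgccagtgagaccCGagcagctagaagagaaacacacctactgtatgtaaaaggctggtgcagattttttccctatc
Neurod2 (chr11:98329646-98329895, minus strand): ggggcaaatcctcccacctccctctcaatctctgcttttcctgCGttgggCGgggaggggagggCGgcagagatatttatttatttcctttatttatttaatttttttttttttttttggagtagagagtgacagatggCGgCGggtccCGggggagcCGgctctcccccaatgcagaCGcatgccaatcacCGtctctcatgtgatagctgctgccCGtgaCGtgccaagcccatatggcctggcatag

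On the 7 chromosomes with members, the promoter table covered 83.6% of protein-coding genes. Of those with a CpG ratio of at least 0.6, 5.86% lay wholly inside a LAD (197 of 3361). Neurod1 and Atoh1 were among these 197 genes. Of genes with a ratio under 0.4, the class of Neurod4 and Neurod6, 42.1% were inside, or 30.7% without the receptor genes. In the class between, that of Neurog2 and Neurog3, the share was 16.4%. Among the members outside, Neurog1 had a ratio of 0.89, Olig2 0.82, Neurod2 0.70 and Neurog3 0.55. The median over genes outside was 0.70 and over genes wholly inside 0.19, or 0.28 without the receptor genes. The 95th percentile of the inside genes that are not receptors was 0.90, above Neurod1 and Atoh1. The groups of members overlapped, since Neurod1 and Atoh1 exceeded Olig2, Neurod2 and Neurog3.

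**Figure D4:**
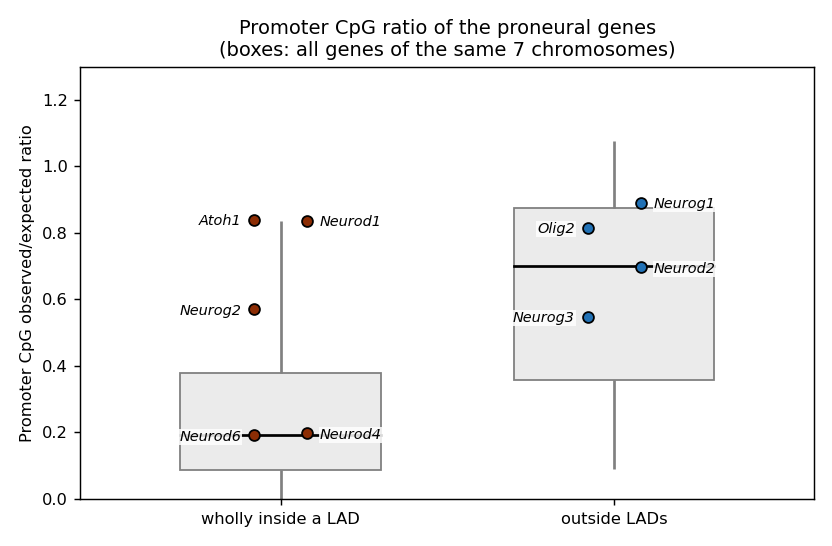
Promoter CpG observed over expected ratio (y axis) of the 5 proneural genes inside a LAD and the 4 outside. Boxes show the quartiles and median, and lines the 5th to 95th percentile, of protein-coding genes on the same 7 chromosomes. Neurod1 and Atoh1, at 0.84, lie at the upper end of the line of genes inside, and Neurod4 and Neurod6 lie near the median of that group, which includes receptor genes.

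E-boxes were searched in the 250 bases before the start. For Neurog2 these bases lie within the annotated gene, since its start in the promoter table is inside that extent. The letters CANNTG, which read alike on both strands, occurred in 4 of the 9 genes, against 61.8% of the promoters of the 7 chromosomes, and the 9 genes held 7 sites in all, where a promoter held 1.03 on average. These counts are near the background. Neurod2 had 3 such sites, CAGATG at position -118 from the start, CATGTG at -51 and CATATG at -17. Neurod1 had CATATG at -242, Neurod6 had CAAATG at -162 and CAGTTG at -132, and Neurog3 had CAGCTG at -165. CATATG was present in 2.63% of promoters and CAGATG, on either strand, in 12.7%. Both placements were among these 4 genes. A match to these letters describes the sequence and does not show that a factor binds.

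The wider bHLH family and the partners of the proneural factors were then placed in the same way, from lists drawn up with earlier results of these data known. Of 20 other bHLH genes, mostly neurogenic or neuronal but with blood factors such as Lyl1, 3 were inside (15%). Among them, Bhlhe22 lay in a LAD of 2880 kb, and Ptf1a, a factor of the pancreas and of inhibitory neurons, lay in a LAD of 72.5 kb at 13.3 kb from its border. Without LADs under 100 kb the list had 2 genes inside. Of a further 20 bHLH genes, mostly mesodermal but with the germ cell factors Figla, Sohlh1 and Sohlh2, 3 were inside: Msc and the muscle factors Myf5 and Myf6, which share 1 LAD of 7852 kb. In both lists together, 6 of 40 were inside and none was cut by a border. Both shares were close to the 18% of protein-coding genes of at most 20 kb without the receptor genes.

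No gene of the lists of proteins that restrain or pair with proneural factors lay in a LAD, where 74.9% of all protein-coding genes, and most genes with CpG-rich promoters (5.86% inside), were outside as well. This held for the 3 E protein genes, with Tcf4 the nearest to a LAD at 433 kb, and for all 16 Id, Hes and Hey genes and relatives, where Hey2 was the nearest at 33.2 kb. None of the 16 Notch pathway genes was inside or cut, although the ligand gene Jag1 lay in a narrow gap, 5.46 and 64.5 kb from its flanking LADs. Of 27 genes of the neuronal, endocrine and glial programmes that follow proneural factors, 7 were inside (25.9%): Dcx, St18, Myt1, Nkx2-2, Isl1, Nkx2-1 and Elavl4. Another 2, Eomes and Myt1l, were cut by a border. This share is close to that of all protein-coding genes. Of 15 neuron marker genes, 2 were inside, the synaptic genes Snap25 and Syt1. None of 12 fibroblast genes was inside, with Postn the nearest to a LAD at 35.8 kb.

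**Figure D5:**
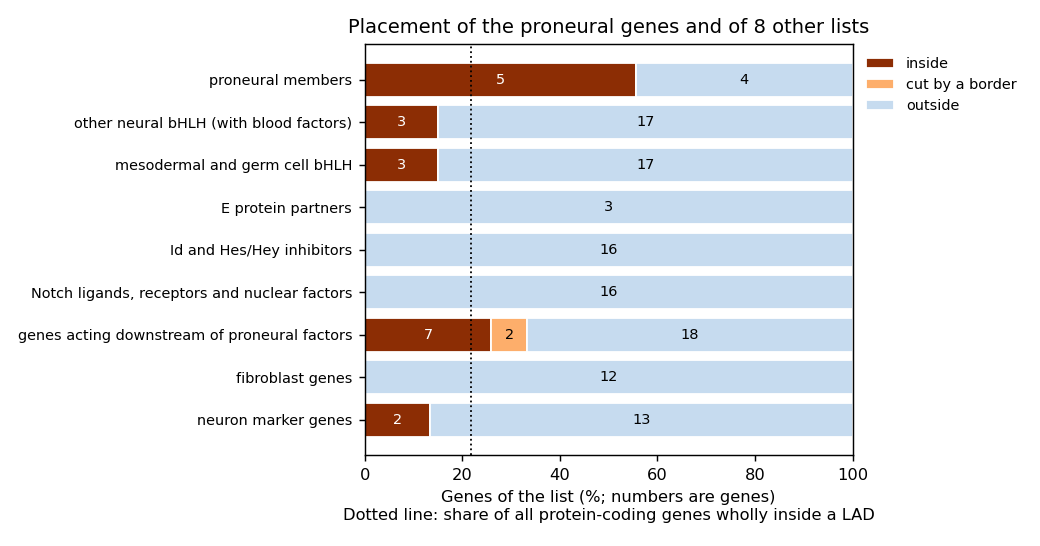
Share of the genes of each list (x axis, %) that lay wholly inside a LAD, were cut by a LAD border or lay outside, with gene counts printed in the bars. The dotted line marks the 21.8% of all protein-coding genes that lay wholly inside, above which stand the 9 proneural genes (5) and the genes acting downstream of them (7 of 27).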

How the data were processed

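Lamin B1 CUT&RUN used 500000 cells per reaction, an antibody dilution of 1 to 100 (1 to 50 for IgG) and digestion for 2 hours, per the labels' protocols. The submitters' processing notes name Bowtie2 and mm10. The domain caller, its threshold and the use of IgG or spike-in DNA are not given in the sources used here. The authors deposited the domains as start and end positions in bp. The deposited score was 0 in all 1437 lines. Domain lengths lay within 36 bp of multiples of 2.5 kb, so borders are resolved no more finely than this step. The shortest gap between LADs was 52.5 kb. The precision of the borders is unknown and may be coarser than the step.

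Positions are counted from 1. A gene was inside when its whole extent lay in 1 LAD, cut when a border fell in it, and outside otherwise. Coverage windows stop at the first and last annotated feature of a chromosome. Genes came from the RefSeq table of GRCm38.p6, protein-coding and on placed chromosomes. Promoter comparisons used the 7 chromosomes with members, a choice made after the promoter table was seen to cover 79.9% of genes on all chromosomes. The placement code was tested on simulated data (2000 of 2000 intervals correct). Python 3.11.15 and pandas 2.3.3 were used.

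The members and lists were chosen with earlier results of these data known. Named genes were the members, their nearest protein-coding gene on each side, and list genes inside or cut, or else the one nearest to a border. Some of these enter the counts and are not reported here by name. The domains that hold Atoh1, Neurod1, Neurod4 and Neurod6 are described with the genes in them, chosen after their positions were seen.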

Additional observations from a re-analysis of the deposited data

How the results depend on the processing

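Of the alternatives, 7 could by construction take a member out of its LAD (genes widened, borders moved inward, short LADs left out), and 5 of these did. All 5 members were inside with genes widened or borders moved inward by 2.5 kb. Neurog2 left the group in the other 5: with its extent widened by 10 or 50 kb it was cut by a border, and with borders moved inward by 10 kb or LADs under 100 kb left out it was outside (185 kb from the next LAD in the latter case). Neurod1 left it as well with 50 kb added on each side and with LADs of at least 500 kb alone (added after seeing the data), so 3 of 9 were inside under each. Another 7 were of the kinds that can bring a LAD to a member outside (genes widened, borders moved outward, LADs joined). None was large enough to do so. Genes were widened by at most 50 kb, borders moved by at most 10 kb and LADs joined over gaps of at most 250 kb. The nearest member outside, Olig2, is 556 kb from a LAD, in a gap of 4.17 Mb, the shortest around these members. That no member outside changed was therefore fixed in advance. The other settings, such as the gene midpoint, could not change a placement. The median distance of members inside, 60.8 kb, became 153 kb with LADs of at least 100 kb (4 genes) and 308 kb with LADs joined at 250 kb. Median coverage around members inside, 69.0% in 1 Mb, was 81.3%, 62.5%, 71.5% and 59.2% in windows of 200 kb, 500 kb, 2 Mb and 5 Mb. Around those outside it was 5.00% in 2 Mb and 20.6% in 5 Mb. The background of 21.8% became 23.8% by midpoint, 23.3% and 23.4% by the lower and upper gene end, 20.9% on autosomes, 17.0% without receptor genes and 26.3% for genes of at most 20 kb. These shifts follow from the construction of each alternative. The background was not counted with short LADs left out, with borders moved or LADs joined, or with genes widened. No paired analysis was possible because the list is merged and has no values per replicate, so neither Lamin B1 replicate could be left out in turn. A stricter domain threshold could not be tried, since all scores are 0, and the unknown read depth limits what can be said of short domains such as that of Neurog2.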
